A study of Homo sapiens with 18 samples.

Results

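The genes described here encode the proteins of the mitochondrial ribosome that carry an MRPL or MRPS symbol, followed through a knockdown of the spindle checkpoint kinase MPS1 in U251 cells, an established human glioblastoma line. They were chosen by symbol alone. Every gene that the annotation of the array names MRPL or MRPS plus a number was taken, without pseudogenes or probe sets naming several genes. Each gene was represented by its brightest probe set over the 18 arrays. This gave 51 genes from 64 probe sets, among 19064 probe sets that name 1 gene. Of the 51, 33 belong to the large subunit and 18 to the small subunit. MRPS30 and MRPS18A were counted with the large subunit, where their proteins sit despite their names. A filter that left out the dimmest 40% of probe sets was passed by 49 of the 51, and these were tested among 7828 genes. The other members, MRPL41 of the large subunit and MRPS18C of the small subunit, had mean log2 signals of 2.73 and 2.75 and were not tested.

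The mitochondrial ribosome translates the few messenger RNAs of the mitochondrial genome, which encode core subunits of the respiratory chain and of ATP synthase. All of its proteins are encoded in the nucleus, made in the cytosol and imported, and they meet ribosomal RNA made inside the organelle. Many descend from proteins of the bacterial ribosome and keep their numbers, while others were added in the line that led to mammals. Dividing cells need new mitochondrial ribosomes.

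Gene expression was measured on Affymetrix arrays in 9 groups of 2 arrays. Untransfected cells (Control), cells transfected with a negative control siRNA (siNeg) and cells transfected with an siRNA against MPS1 (siMPS1) were taken 6, 24 and 48 h after transfection. All groups were the same line with no other agent named, and transfection used 2 pmol of siRNA. The labels do not tie the 2 arrays of a group to separate cultures, so the p-values measure only the spread between these samples, which may be technical. In bulk RNA a change in the makeup of the culture and a change of RNA per cell cannot be told apart.

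TTK, which encodes MPS1, was lower in siMPS1 than in siNeg cells at 6, 24 and 48 h, with log2 differences of -1.43, -1.88 and -2.30 (SE 0.21 each, adjusted p = 0.000807, 8.87e-06 and 2.35e-07, limma). The line expressed VIM, CD44, NES and FN1, at mean log2 signals of 11.91, 11.53, 9.02 and 8.47. The astrocyte markers GFAP and S100B were dim, at 3.81 and 2.24, beside a filter floor of 3.72. Among neuronal and epithelial markers, TUBB3, KRT18 and KRT8 were bright too, at 10.52, 9.54 and 7.93. SNAP25 was near the floor at 3.97, and SYP, EPCAM and CDH1 did not pass the filter. The 2 arrays of each group correlated from 0.933 to 0.948 over all probe sets, and 0 pairs were identical. Several groups stood apart in the array's own control probes. In siMPS1 cells at 48 h the log2 signal of the 3' end of actin exceeded that of its 5' end by 0.87 and 0.92 on the 2 arrays, while the means of the other groups ran up to 0.43. The mean log2 signal of 18S rRNA was 11.15 in siNeg at 24 h, 11.13 in siMPS1 at 48 h and 9.46 in siNeg at 48 h, and from 10.08 to 10.37 in the other groups. The mean log2 signal of the Dap spike control was 5.39 in siNeg at 48 h and from 6.12 to 7.29 in the other groups. The number of arrays limits the precision of every value below.

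The promoters of 3 genes are shown first, because their transcripts carry the main patterns: MRPL42 fell most at 48 h after MPS1 knockdown, MRPL16 rose with time in both controls and was lower in siMPS1 cells at 48 h, and MRPS16 rose at both steps in all 3 conditions. Each window is 300 bases, 250 before and 50 after the annotated start, from RefSeq on GRCh38.p14, and is printed 5' to 3' on the strand of the gene. Capitals mark a match to AAGATGGCG, a YY1 motif, or to CCGGAAG, an ETS motif that reads CTTCCGG on the opposite strand, on either strand. MRPL42 lies at chr12:93467264-93467563 on the plus strand, MRPL16 at chr11:59810729-59811028 on the minus strand and MRPS16 at chr10:73252595-73252894 on the minus strand.

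MRPL42: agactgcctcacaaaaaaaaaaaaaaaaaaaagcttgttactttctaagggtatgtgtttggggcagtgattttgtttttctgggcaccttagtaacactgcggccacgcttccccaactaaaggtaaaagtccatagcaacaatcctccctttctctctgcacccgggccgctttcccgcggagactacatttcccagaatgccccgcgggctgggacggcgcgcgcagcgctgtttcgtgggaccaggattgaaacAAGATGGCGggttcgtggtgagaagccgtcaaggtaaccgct

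MRPL16: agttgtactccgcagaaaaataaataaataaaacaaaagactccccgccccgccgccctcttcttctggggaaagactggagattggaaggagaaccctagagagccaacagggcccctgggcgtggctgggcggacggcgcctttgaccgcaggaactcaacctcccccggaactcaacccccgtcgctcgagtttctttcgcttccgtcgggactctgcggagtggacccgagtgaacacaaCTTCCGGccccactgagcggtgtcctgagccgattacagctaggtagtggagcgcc

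MRPS16: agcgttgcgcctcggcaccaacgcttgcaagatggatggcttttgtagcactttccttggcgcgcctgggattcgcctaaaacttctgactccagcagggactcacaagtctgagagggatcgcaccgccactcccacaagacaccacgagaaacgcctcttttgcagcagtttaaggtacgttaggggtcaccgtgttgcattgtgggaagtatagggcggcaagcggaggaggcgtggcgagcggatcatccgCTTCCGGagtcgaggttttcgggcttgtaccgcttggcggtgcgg

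In MRPL42 the first base of the YY1 motif lay 8 bases past the start base. In MRPL16 the ETS motif began at -6, just before the start, and in MRPS16 it began 5 bases past the start base. The reference table held a promoter for 45 of the 51 genes, and 24 of the 45 held at least 1 of 3 motifs searched on both strands. The ETS motif was found in 18 of 45 (40%), against 10.7% of 27305 promoters in the table and 19.8% of the 6545 that belong to genes tested here. The YY1 motif was found in 8 of 45 (17.8%), against 1.85% and 4.48%, and in 7 of these 8 it began at or after the start base. GCGCATGCG, a motif of the factor NRF1, was found in 3 of 45 (6.67%), against 2.1% and 3.87%. ETS factors, YY1 and NRF1 are known regulators of nuclear genes for mitochondrial proteins. A match is a description of these letters and not a binding site. MRPL46 and MRPS11, a large-subunit and a small-subunit gene on opposite strands of chromosome 15, shared 181 bases of their windows.

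The 51 genes differed widely in signal. MRPL3 (10.12), MRPL33 (9.61) and MRPL20 (9.43), all counterparts of bacterial large-subunit proteins, had the highest mean log2(signal + 3) over 18 arrays. MRPL41, MRPS18C and MRPL52 (3.99) had the lowest. These are signals of different probe sets, so their order is not an order of transcript amounts. The chosen probe sets of MRPL35, MRPL41, MRPL44 and MRPS22 are of a type that can also match related sequences, and their values are uncertain to that extent. The 3 paralogs named for bacterial S18 stood at 6.75 for MRPS18A, 7.97 for MRPS18B and 2.75 for MRPS18C.

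**Figure D1:**
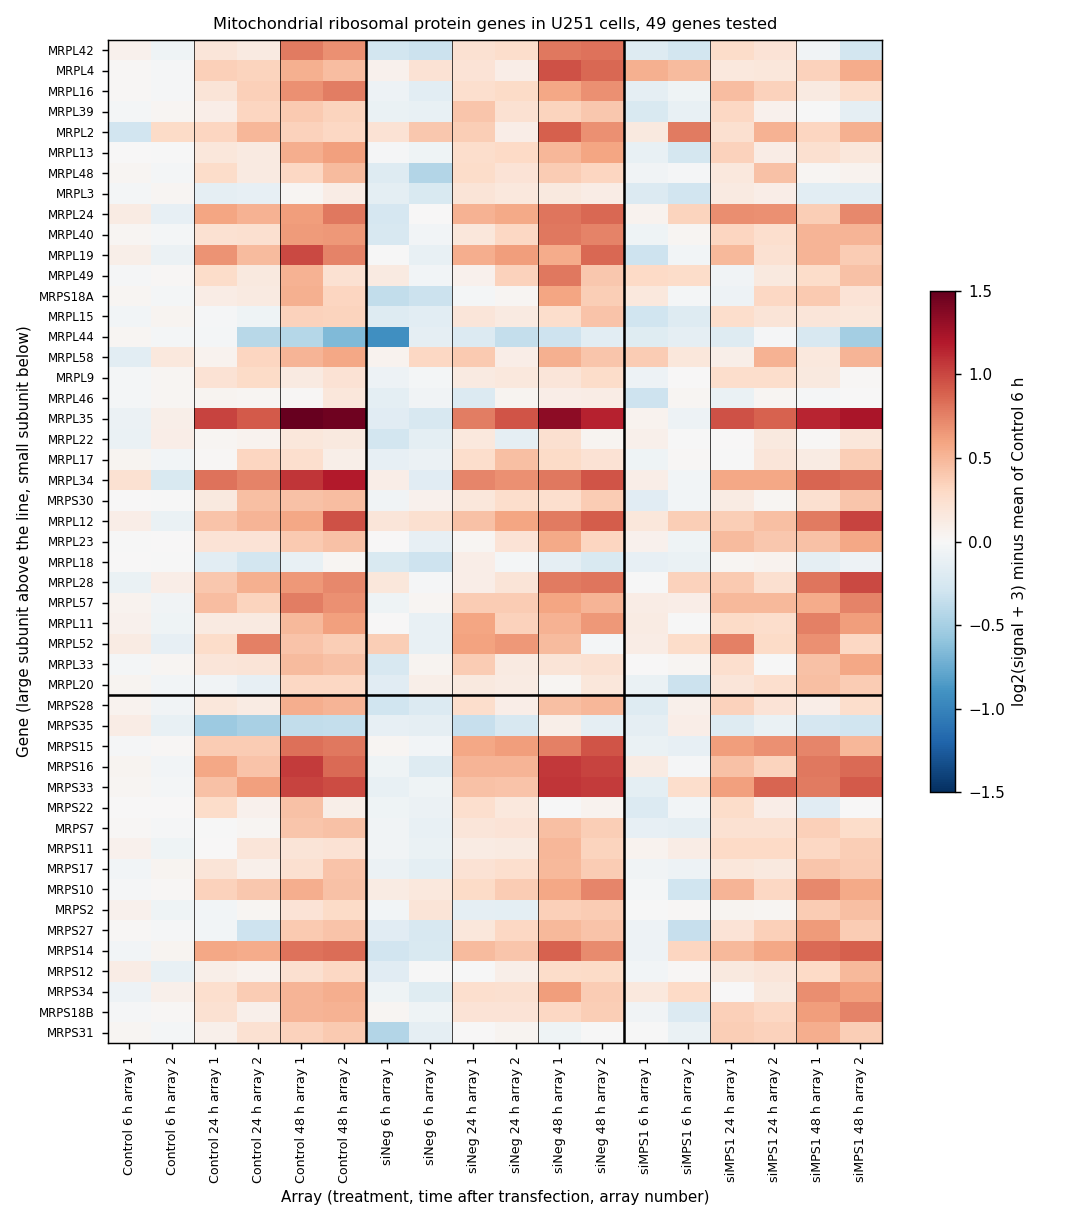
Change in log2(signal + 3) of the 49 genes tested (rows, large subunit above the heavy line, small subunit below) on each of the 18 arrays (columns), relative to the mean of the 2 Control arrays at 6 h. Rows are ordered by siMPS1 minus siNeg at 48 h. Red fills most rows at 48 h in Control and siNeg, with MRPL35 the deepest, and the top rows of siMPS1 at 48 h are paler.

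In untransfected cells more members rose than fell at each step in culture. Only at the second step did their share of rises stand well apart from that of all genes. From 6 to 24 h, 18 of 49 genes rose and 2 fell in Control (limma, adjusted p under 0.05 over all genes tested). Of all genes tested, 43.1% were called in this comparison and 27.1% were called higher, so the members' share of rises was near that background. The median log2 difference was 0.19 over the 49 genes and 0.12 over all genes. Between 24 and 48 h, 19 of 49 rose and 0 fell, where 19.6% of all genes were called and 8% were called higher. The median of the 49 was 0.22, while that of all genes was -0.05. The deposited values are scaled to a common mean on each array. Centring each array on its median instead shifted the all-gene median of the first step from 0.12 to -0.04 and that of the second step from -0.05 to 0.09. With that centring 10 members rose and 6 fell from 6 to 24 h, and 37 rose and 0 fell from 24 to 48 h.

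MRPL35, the counterpart of the bacterial protein of the same number, showed the largest rise. Its log2 signal in Control was 6.64 and 6.82 at 6 h, 7.74 and 7.65 at 24 h, and 8.22 and 8.19 at 48 h. No 2 of these times overlapped. The first step was 0.96 (SE 0.09, adjusted p = 1.54e-07) and the second 0.52 (SE 0.09, adjusted p = 0.000838). MRPL34, a small protein of the large subunit, read 7.23 and 6.78 at 6 h, 7.82 and 7.75 at 24 h, and 8.08 and 8.19 at 48 h. Its steps were 0.78 (adjusted p = 3.5e-05) and 0.35 (adjusted p = 0.0455), and the second was lost when any 1 of the 4 arrays compared was left out (0.29 to 0.41, adjusted p up to 0.222). In the small subunit, MRPS16 read 7.15 and 7.06, then 7.69 and 7.53, then 8.15 and 7.96. Its steps were 0.50 (adjusted p = 0.000187) and 0.45 (adjusted p = 0.002). MRPS33, a small-subunit protein with no bacterial counterpart, rose by 0.53 (adjusted p = 0.00112) and by 0.47 (adjusted p = 0.00761). The second step of MRPS33 was lost without Control 24 h replicate 1 or Control 48 h replicate 1 (0.38 to 0.56, adjusted p up to 0.0849).

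Further members rose at the first step, the second or both. From 6 to 24 h MRPL19 rose by 0.58 and MRPL24 by 0.56, both proteins of the large subunit with bacterial counterparts. MRPS14, a counterpart of a bacterial small-subunit protein, rose by 0.57. From 24 to 48 h MRPS27, a helical repeat protein of the small subunit, rose by 0.58, MRPL42 by 0.57 and MRPL16 by 0.46. MRPL16 had risen by 0.27 at the first step (adjusted p = 0.0229), a call lost without either Control 6 h array or Control 24 h replicate 2 (0.19 to 0.36, adjusted p up to 0.215). MRPS35 and MRPL18 were the members that fell, by 0.52 and by 0.21, both from 6 to 24 h. MRPS35, a small-subunit protein without a bacterial counterpart, read 8.43 and 8.21 at 6 h and 7.78 and 7.83 at 24 h, with no overlap. The fall of MRPL18 was lost without Control 6 h replicate 1, Control 6 h replicate 2 or Control 24 h replicate 2 (-0.28 to -0.15, adjusted p up to 0.176).

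In transfected cells, too, more members rose than fell between 6 and 24 h. These comparisons use arrays that the Control steps do not, and they were added after the data were seen. From 6 to 24 h, 33 of 49 genes rose and 0 fell in siNeg (median 0.33, all genes 0.04), where 44.3% of all genes were called and 25.2% were called higher. In siMPS1 29 rose and 1 fell (median 0.33, all genes 0.01), with 47.4% of all genes called and 26.4% called higher. MRPL35 again led, with 1.06 in siNeg and 0.94 in siMPS1. The member that fell in siMPS1 was MRPL4, a protein at the wall of the exit tunnel, by 0.34 (adjusted p = 0.00569). Of the 49, 12 rose in all 3 conditions, against 14.3% of all genes, and 14 rose in both Control and siNeg, against 17.3%. The 12 were MRPL9, MRPL16, MRPL19, MRPL24, MRPL34, MRPL35, MRPL40 and MRPL57 of the large subunit and MRPS14, MRPS15, MRPS16 and MRPS33 of the small subunit. Leaving out 1 array ended part of this for 6 of the 12. In Control it ended the calls of MRPL16, as given above, and of MRPL40 (any 1 of the 4 arrays, 0.19 to 0.26, adjusted p up to 0.152). In siNeg it ended that of MRPL9 (siNeg 6 h replicate 1 or siNeg 24 h replicate 2, 0.18 to 0.22, adjusted p up to 0.0969). In siMPS1, MRPL24 (0.36 to 0.64, adjusted p up to 0.0503) and MRPS14 (0.21 to 0.61, adjusted p up to 0.0922) lost their calls without siMPS1 6 h replicate 1. MRPS16 lost its call there without siMPS1 6 h replicate 2 or siMPS1 24 h replicate 1 (0.26 to 0.40, adjusted p up to 0.0657). The 18S rRNA signal was 11.15 in siNeg at 24 h, beside 10.08 in siNeg at 6 h and 10.18 in Control at 24 h, and its part in the siNeg steps and in the comparisons at 24 h was not tested.

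Between 24 and 48 h the counts in transfected cells were lower than at the first step, and the difference between siNeg and siMPS1 counts was not tested. In siNeg 23 of 49 genes rose and 1 fell (median 0.22, all genes -0.01), with 29.2% of all genes called and 13.6% called higher. In siMPS1 11 rose and 2 fell (median 0.10, all genes 0.01), with 24.4% called and 12.6% called higher. The siNeg count was 10 without siNeg 24 h replicate 1 and 13 without siNeg 48 h replicate 1, and the siMPS1 count was 8 without siMPS1 48 h replicate 2. In siMPS1 cells MRPL42 fell by 0.40 (SE 0.08, adjusted p = 0.00164) and MRPL3 by 0.28 (SE 0.06, adjusted p = 0.00154). In siNeg the member that fell was MRPL18, by 0.21, a call lost without siNeg 24 h replicate 1 or siNeg 48 h replicate 2 (-0.29 to -0.14, adjusted p up to 0.268). In both Control and siNeg 12 members rose, against 3.63% of all genes: MRPL13, MRPL15, MRPL16, MRPL35, MRPL40, MRPL42, MRPS2, MRPS7, MRPS15, MRPS16, MRPS28 and MRPS33. Of their siNeg calls, those of MRPL13, MRPL15 and MRPS15 were lost without either siNeg 24 h array or siNeg 48 h replicate 2 (adjusted p up to 0.129, 0.347 and 0.32). That of MRPS28 was lost without siNeg 24 h replicate 2 or either siNeg 48 h array (adjusted p up to 0.221). Leaving out replicate 1 of siNeg at 24 or 48 h ended those of MRPL35 and MRPS7 (adjusted p up to 0.064 and 0.131), and leaving out siNeg 48 h replicate 2 ended that of MRPL16 (adjusted p = 0.0563). In Control, MRPS28 lost its call without Control 24 h replicate 2 or Control 48 h replicate 1 (adjusted p up to 0.0722). In all 3 conditions only MRPS16 and MRPS2 rose, where 1.38% of all genes did. MRPS2, a counterpart of a bacterial small-subunit protein, rose by 0.25, 0.50 and 0.37 in Control, siNeg and siMPS1. Its Control rise was lost without any 1 of the 4 Control arrays compared (0.21 to 0.29, adjusted p up to 0.211).

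**Figure D2:**
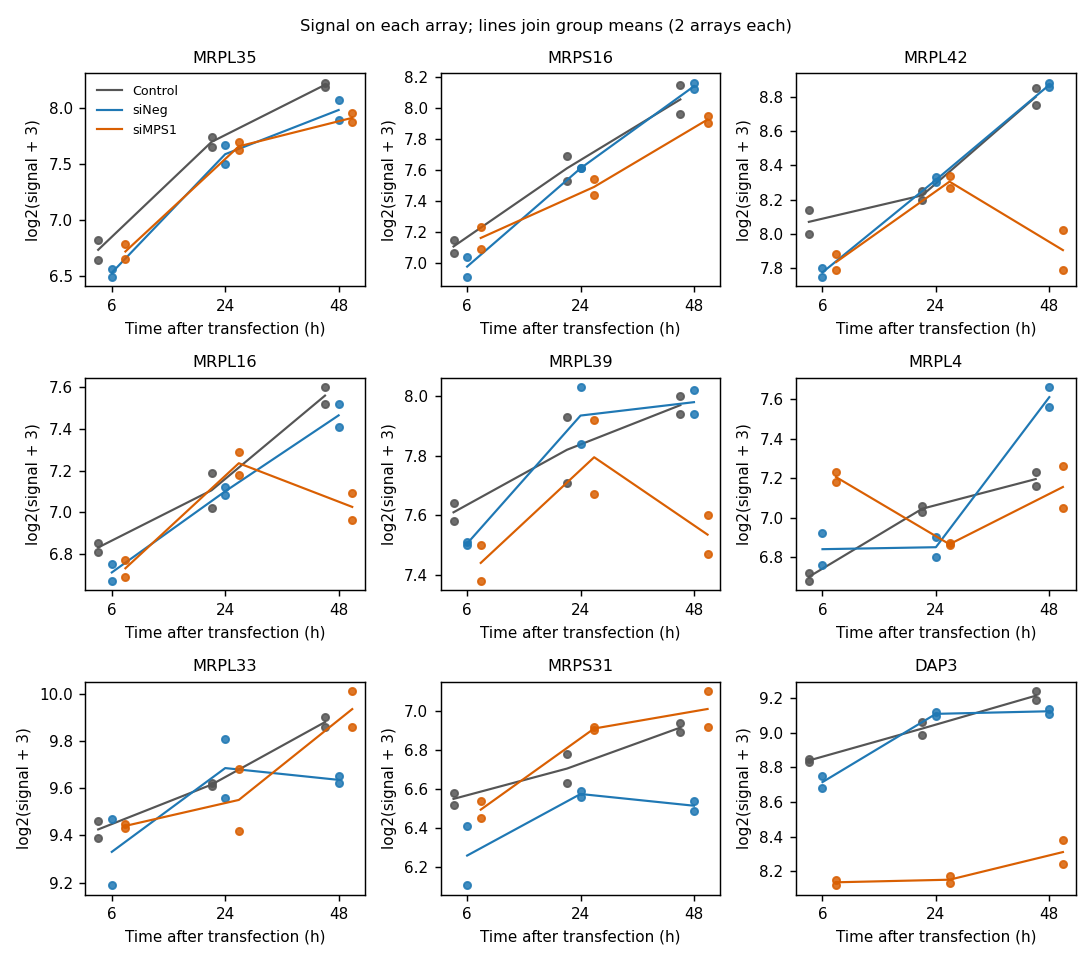
Log2(signal + 3) of 8 MRPL and MRPS genes and of DAP3 on each array (points) at 6, 24 and 48 h, with times as evenly spaced classes and lines joining the means of 2 arrays. MRPL42 and MRPL16 rise to 48 h in Control and siNeg. In siMPS1 MRPL42 turns down from 24 to 48 h, while the smaller drop of MRPL16 over that step was not called. MRPL35 and MRPS16 rise in all 3 conditions, and DAP3 is lower in siMPS1 at each time.

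At 48 h after transfection, more members were called lower than higher in siMPS1 cells. Against siNeg, 10 of 49 genes were called lower and 4 higher. The median log2 difference was -0.09, while the all-gene median was 0.03. Here and below, a fall or rise against a control means lower or higher than that control at the same time. It is not a change over time. Within siMPS1 cells, MRPL42 and MRPL3 were the only members called lower at 48 h than at the time before. Of all genes tested, 29.2% were called and 13.5% were called lower in this comparison. Against Control, 10 were called lower and 0 higher (median -0.07, all genes 0.05), with 27.5% of all genes called and 12.2% called lower. Against siNeg, falls and rises together made up a share of the members near that of all genes. The large subunit held 8 of the 10 falls against siNeg among its 32 genes tested (median -0.14) and the small subunit 2 of 17 (median -0.03). Against Control the falls were again 8 and 2 (medians -0.09 and 0.09). The 4 rises against siNeg were MRPL20 and MRPL33 of the large subunit and MRPS18B and MRPS31 of the small subunit. With its rises counted, the share of the large subunit called against siNeg was near that of all genes. The difference between the subunits was not tested. Both comparisons use the same siMPS1 arrays, and those arrays are the ones whose actin probes had the high ratio of 3' to 5' signal. The mean of that log2 ratio was 0.90 in siMPS1 at 48 h, 0.12 in siNeg and 0.20 in Control. The same ratio for GAPDH was 0.29 in siMPS1, 0.04 in siNeg and -0.03 in Control, and the 18S rRNA signal was 11.13, 9.46 and 10.17. The Dap spike signal was 7.29 in siMPS1, 5.39 in siNeg and 7.21 in Control. The part of these control signals in the results at 48 h was not tested.

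MRPL42, a large-subunit protein with no bacterial counterpart, whose promoter is printed above with a YY1 motif, changed most. Its log2 signal at 48 h was 8.02 and 7.79 in siMPS1, 8.86 and 8.88 in siNeg, and 8.85 and 8.75 in Control. The siMPS1 arrays lay below all arrays of both controls. The log2 difference was -0.96 against siNeg (SE 0.08, a 1.95-fold difference, adjusted p = 1.06e-07) and -0.89 against Control (SE 0.08, adjusted p = 4.14e-07). At 24 h the gene had read 8.34 and 8.27 in siMPS1 beside 8.30 and 8.33 in siNeg, and the groups overlapped. The change in response from 24 to 48 h was itself -0.95 (SE 0.11, adjusted p = 2.28e-05). All 3 of these calls held whichever array was left out.

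MRPL16, the counterpart of a bacterial protein near the peptidyl transferase centre, read 6.96 and 7.09 in siMPS1, 7.41 and 7.52 in siNeg, and 7.52 and 7.60 in Control. The siMPS1 arrays again lay below every control array. The difference was -0.44 against siNeg (SE 0.09, adjusted p = 0.00152) and -0.53 against Control (SE 0.09, adjusted p = 0.000351). Over the same interval its difference between siMPS1 and siNeg changed by -0.58 (SE 0.13, adjusted p = 0.00524), and no array left out ended these calls. MRPL39, a large-subunit protein related to an aminoacyl-tRNA synthetase, read 7.60 and 7.47 in siMPS1, 7.94 and 8.02 in siNeg, and 8.00 and 7.94 in Control. Its siMPS1 values did not overlap either control, with -0.44 against each (adjusted p = 0.00236 against siNeg and 0.00313 against Control). MRPL13, the counterpart of a bacterial large-subunit protein, read 7.96 and 7.89 in siMPS1, 8.22 and 8.31 in siNeg, and 8.26 and 8.34 in Control. It was lower by -0.34 against siNeg (adjusted p = 0.00431) and by -0.37 against Control (adjusted p = 0.00281).

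MRPL3, which reaches toward the catalytic centre in bacterial ribosomes, read 9.99 on both siMPS1 arrays, 10.29 and 10.26 in siNeg, and 10.17 and 10.26 in Control. The siMPS1 arrays lay below both controls, which met at 10.26. The difference was -0.29 against siNeg (SE 0.06, adjusted p = 0.000747) and -0.23 against Control (SE 0.06, adjusted p = 0.00502), the latter lost without Control 48 h replicate 2 (-0.27 to -0.19 over the arrays left out, adjusted p up to 0.0577). MRPL48 of the large subunit and MRPS28 of the small subunit also fell against both controls. MRPL48 differed by -0.31 from siNeg, a call lost without any 1 of the 4 arrays (-0.34 to -0.28, adjusted p up to 0.179). Against Control it differed by -0.35, which was lost without Control 48 h replicate 2 or either siMPS1 48 h array (-0.44 to -0.27, adjusted p up to 0.199). MRPS28 differed by -0.29 from siNeg, lost without either siNeg 48 h array or siMPS1 48 h replicate 1 (-0.37 to -0.21, adjusted p up to 0.221). Against Control it differed by -0.34, lost without Control 48 h replicate 1 or siMPS1 48 h replicate 1 (-0.43 to -0.26, adjusted p up to 0.12).

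Some calls at 48 h depended on which control was used. MRPL4 read 7.05 and 7.26 in siMPS1, 7.66 and 7.56 in siNeg, and 7.23 and 7.16 in Control. The siMPS1 arrays lay below siNeg and overlapped Control. It was -0.45 against siNeg (SE 0.09, adjusted p = 0.00125) and -0.04 against Control, and siNeg itself stood above Control by 0.42 (adjusted p = 0.00603). MRPS31, a small-subunit protein without a bacterial counterpart, read 7.10 and 6.92 in siMPS1, 6.49 and 6.54 in siNeg, and 6.89 and 6.94 in Control. It was 0.50 above siNeg (SE 0.11, adjusted p = 0.00231) and 0.09 above Control, with siNeg 0.40 below Control (log2 difference -0.40, adjusted p = 0.0215). The second probe set of MRPS31 gave -0.29 against siNeg and -0.38 against Control, so the probe sets disagree in direction in both comparisons. The siNeg differences from Control at 48 h were lost for MRPL4 without Control 48 h replicate 2 or siNeg 48 h replicate 1 (0.37 to 0.47, adjusted p up to 0.075). For MRPS31 they were lost without any 1 of the 4 arrays (-0.43 to -0.37, adjusted p up to 0.13).

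The other members that rose against siNeg at 48 h were MRPL33, MRPL20 and MRPS18B, and none of them passed the test against Control. MRPL33, a small protein of the large subunit, read 9.86 and 10.01 in siMPS1, 9.62 and 9.65 in siNeg, and 9.90 and 9.86 in Control. It was 0.30 above siNeg (adjusted p = 0.0247), a call lost without either siNeg 48 h array or siMPS1 48 h replicate 2 (0.23 to 0.37, adjusted p up to 0.183). MRPL20, another large-subunit protein, was 0.32 above siNeg (adjusted p = 0.00915), lost without replicate 1 of either group (0.25 to 0.38, adjusted p up to 0.0973). MRPS18B was 0.35 above siNeg (adjusted p = 0.00229), while its second probe set gave -0.09. With the mean of a gene's probe sets in place of the brightest, MRPS18B (0.13, adjusted p = 0.122) and MRPS31 (0.10, adjusted p = 0.447) were no longer called. MRPL40 and MRPS15, called lower against siNeg by -0.27 and -0.23, had values of -0.13 and -0.19 against Control that did not pass. Leaving out siNeg 48 h replicate 1 or either siMPS1 48 h array ended the MRPL40 call (-0.29 to -0.24, adjusted p up to 0.0905). Leaving out siMPS1 48 h replicate 2 or siNeg 48 h replicate 2 ended that of MRPS15 (-0.34 to -0.12, adjusted p up to 0.424).

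Against Control alone, MRPL19, MRPL35 and MRPS22 were lower in siMPS1 at 48 h, with log2 differences of -0.41, -0.30 and -0.35. MRPL35, the gene with the widest rise in culture, read 7.87 and 7.95 in siMPS1 and 8.22 and 8.19 in Control. It stood at -0.07 against siNeg, which did not pass. The MRPL35 call was lost without either Control 48 h array or siMPS1 48 h replicate 1 (-0.34 to -0.26, adjusted p up to 0.133). That of MRPL19 was lost without Control 48 h replicate 1 or siMPS1 48 h replicate 2 (-0.54 to -0.29, adjusted p up to 0.176). That of MRPS22 was lost without Control 48 h replicate 1 or siMPS1 48 h replicate 1 (-0.53 to -0.18, adjusted p up to 0.301). Without Control 48 h replicate 1 the count of members called against Control was 6.

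**Figure D3:**
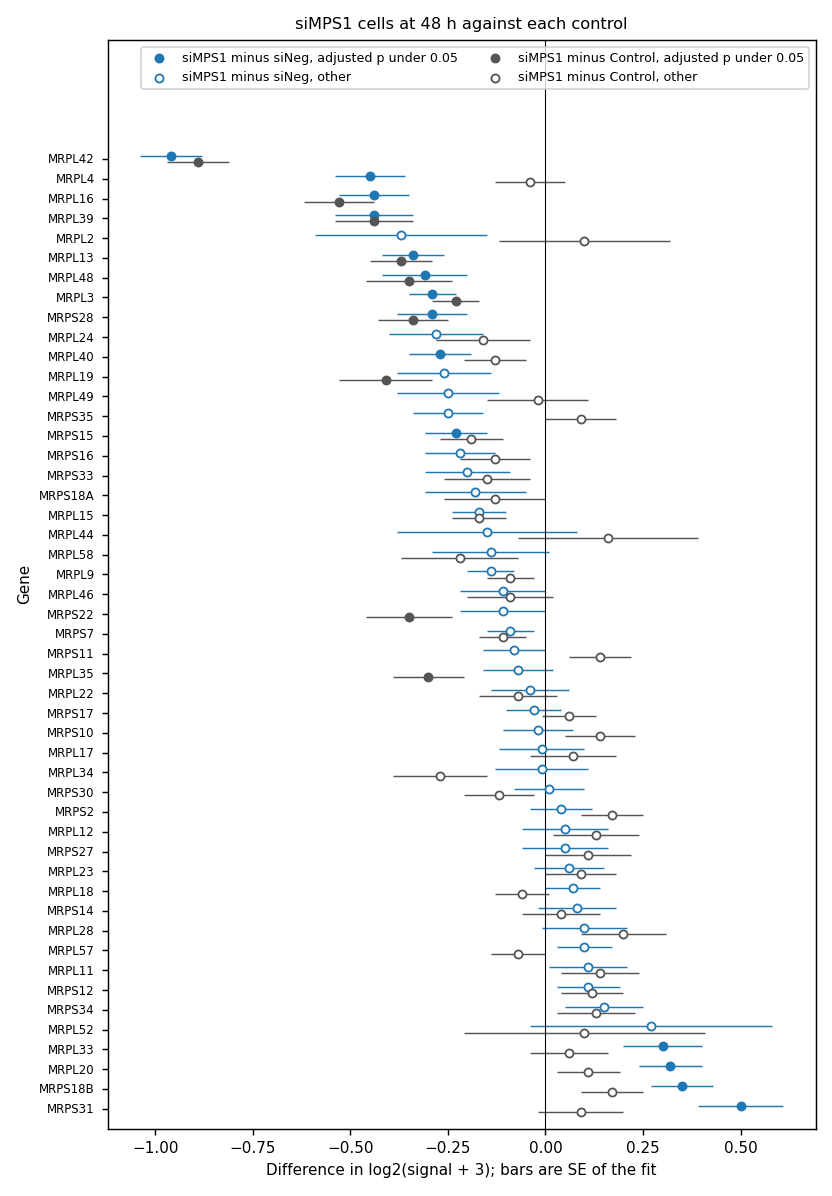
Log2 difference of siMPS1 at 48 h from siNeg (blue) and from Control (grey) for the 49 genes tested, with bars showing the SE from the limma fit and filled points for adjusted p under 0.05. Both comparisons share the siMPS1 arrays. MRPL42 stands alone at -0.96 and -0.89, and for MRPL4 and MRPS31 the blue and grey points part.

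At 6 h few members differed between siMPS1 and siNeg. MRPL4, MRPS14 and MRPS34 rose and 0 fell, where 7.7% of all genes were called, and the median was 0.08 beside 0.01 for all genes. MRPL4 read 7.23 and 7.18 in siMPS1, 6.76 and 6.92 in siNeg, and 6.72 and 6.68 in Control. Its siMPS1 arrays lay above all control arrays, by 0.37 against siNeg (SE 0.09, adjusted p = 0.0241) and 0.50 against Control (SE 0.09, adjusted p = 0.00234). The call against siNeg was lost without any 1 of the 4 arrays (0.29 to 0.45, adjusted p up to 0.195), and that against Control held without each of them. MRPS34 of the small subunit read 7.43 and 7.57 in siMPS1 and 7.21 and 7.09 in siNeg, a difference of 0.35 (adjusted p = 0.0356). MRPS14 read 7.08 and 7.48 against 6.87 and 6.93, a difference of 0.38 (adjusted p = 0.0327). The calls of MRPS34 (0.28 to 0.43, adjusted p up to 0.234) and MRPS14 (0.18 to 0.58, adjusted p up to 0.363) were both lost without siNeg 6 h replicate 1, siNeg 6 h replicate 2 or siMPS1 6 h replicate 2. The count itself fell to 0 without any 1 of those 3 arrays. In these siMPS1 arrays the mean log2 signal of the Alu control probes was 12.96, beside 12.48 in siNeg and 12.41 in Control, and its part in the results at 6 h was not tested.

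Against Control at 6 h, MRPL15 and MRPL3 were lower and MRPL4 was higher in siMPS1, with 16.6% of all genes called. MRPL15, a large-subunit protein, differed by -0.25 (lost without Control 6 h replicate 2 or siMPS1 6 h replicate 1, -0.29 to -0.20, adjusted p up to 0.143). MRPL3 differed by -0.25 (lost without Control 6 h replicate 2 or siMPS1 6 h replicate 2, -0.29 to -0.21, adjusted p up to 0.0795). The count was 1 without Control 6 h replicate 2 and 5 without siMPS1 6 h replicate 1. Under median centring it was 1 higher and 19 lower, as the all-gene median moved from 0.04 to -0.16.

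At 24 h the members hardly differed between siMPS1 and siNeg. MRPL23, a large-subunit protein beside the end of the exit tunnel, was the only one called, with 10.9% of all genes called and a median of 0.06 beside 0.00. It read 8.10 and 8.03 in siMPS1 and 7.66 and 7.84 in siNeg, without overlap. The difference was 0.31 (SE 0.09, adjusted p = 0.0328), lost without siNeg 24 h replicate 1 or either siMPS1 24 h array (0.23 to 0.40, adjusted p up to 0.275). Against Control, 8 of 49 rose and 0 fell (median 0.07, all genes -0.02), where 12.7% of all genes were called and 5.49% were called higher. MRPS27 rose by 0.45, MRPS35 by 0.36, MRPL20 by 0.31, MRPS15 by 0.28, MRPL15 by 0.27, MRPL18 by 0.26, MRPL3 by 0.25 and MRPS7 by 0.21. That count was 4 without Control 24 h replicate 1 or siMPS1 24 h replicate 1, 2 without siMPS1 24 h replicate 2 and 1 without Control 24 h replicate 2. Each of the 8 lost its call without at least 1 of these arrays, with adjusted p up to 0.183. All 8 also had higher group means in siNeg than in Control at 24 h. These were 7.70 beside 7.28 for MRPS27, 9.44 beside 9.19 for MRPL18 and 8.03 beside 7.81 for MRPS35. Of the 8, MRPL3 alone was called for siNeg against Control, and none was called for siMPS1 against siNeg.

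With the negative control siRNA few members were called against Control. At 6 h MRPL42 and MRPL18 were below Control, with log2 differences of -0.30 and -0.27, with 3.82% of all genes called, and both calls were lost without any 1 of the 4 arrays (adjusted p up to 0.329). Under median centring, which moved the all-gene median from 0.02 to -0.13, 15 members were lower. At 24 h MRPL3 was 0.31 above Control, with 0.933% of all genes called, lost without any 1 of the 4 arrays (0.28 to 0.33, adjusted p up to 0.157). At 48 h MRPL4 and MRPS35 were 0.42 and 0.34 above Control and MRPS31 was below it, with 12.9% of all genes called. The MRPS35 call was lost without either Control 48 h array or siNeg 48 h replicate 1 (0.23 to 0.46, adjusted p up to 0.258). The count at 48 h was 1 without either Control 48 h array and 0 without siNeg 48 h replicate 1.

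The change of the response between successive times was tested directly. From 6 to 24 h 1 member of 49 passed, MRPS34, where 3.68% of all genes did. The count was 0 without any 1 of the 4 siNeg arrays at these times, siMPS1 6 h replicate 2 or siMPS1 24 h replicate 1, and 2 without siMPS1 6 h replicate 1. The siMPS1 arrays of MRPS34 lay above siNeg at 6 h and below it at 24 h (7.28 and 7.42 against 7.52 and 7.51). Between 24 and 48 h 5 passed, MRPL4, MRPL16, MRPL33, MRPL42 and MRPS33, where 15.8% of all genes did. In these the response became more negative for 4 and more positive for MRPL33. Under median centring all 5 that passed were negative. The count was 3 without siNeg 24 h replicate 1, siNeg 24 h replicate 2 or siMPS1 24 h replicate 2.

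Genes that work with the mitochondrial ribosome were counted in the same fit. DAP3 encodes a GTP-binding protein of the small mitoribosomal subunit and carries no MRPS symbol. It read 8.15 and 8.12 in siMPS1 at 6 h, beside 8.75 and 8.68 in siNeg and 8.85 and 8.83 in Control. At 24 h it read 8.17 and 8.13, beside 9.10 and 9.12 in siNeg and 9.06 and 8.99 in Control, and at 48 h 8.24 and 8.38, beside 9.14 and 9.11 and 9.24 and 9.19. The siMPS1 arrays lay below both controls at every time. Against siNeg the log2 difference was -0.58 (adjusted p = 5.92e-05), -0.96 (adjusted p = 1.99e-08) and -0.81 (adjusted p = 5.02e-08) at the successive times, with SE 0.06 each. Against Control it was -0.71, -0.87 and -0.91. The sequence of the siRNA was not used here. For DAP3 and for the members, loss of MPS1 and any other effect of this siRNA share the same arrays. Which of them lies behind a difference was not tested. The other measured proteins of the mitochondrial ribosome without an MRPL or MRPS symbol, PTCD3 and GADD45GIP1, passed no test against siNeg.

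Factors of mitochondrial translation and of mitoribosome assembly were few on the array, and their counts stand beside 7.7%, 10.9% and 29.2% of all genes called against siNeg at 6, 24 and 48 h. Of 9 translation factors measured, 0 passed at 6 or 24 h against siNeg (limma), and at 48 h 1 rose and 1 fell. MTIF2, the initiation factor that joins the subunits, rose by 0.41 (adjusted p = 0.000364), and OXA1L, which inserts new chains into the inner membrane, fell by 0.48 (adjusted p = 0.00187). Of 15 assembly factors, METTL17 rose by 0.36 at 6 h (adjusted p = 0.0328) and 0 passed at 24 h. At 48 h NGRN rose by 0.19 (adjusted p = 0.048) while ERAL1, which binds the small-subunit rRNA, fell by 0.71 (adjusted p = 0.00803) and FASTKD2 by 0.42 (adjusted p = 0.00795). Leaving out any 1 of the 4 arrays ended the METTL17 call (adjusted p up to 0.148). Leaving out replicate 2 of siNeg or siMPS1 at 48 h ended that of NGRN (0.11 to 0.28, adjusted p up to 0.367). The ERAL1 call ended without siNeg replicate 1 or siMPS1 replicate 2 (adjusted p up to 0.103), and that of FASTKD2 without siNeg replicate 2 or siMPS1 replicate 1 (adjusted p up to 0.0888). Of 12 genes of mitochondrial aminoacyl-tRNA synthetases or subunits of a tRNA amidotransferase, HARS2 fell at all 3 times (-0.35, -0.36 and -0.30). At 48 h NARS2 and WARS2 fell as well (-0.44 and -0.43), as did the amidotransferase gene QRSL1 (-0.53), and CARS2 rose by 0.69. The QRSL1 call held without each array. At 6 and 24 h any 1 array ended the HARS2 call, and at 48 h either siNeg array or siMPS1 replicate 1 did (adjusted p up to 0.368). NARS2 lost its call without siNeg replicate 1 or either siMPS1 array (-0.66 to -0.22), WARS2 without any 1 array (-0.53 to -0.33) and CARS2 without either siNeg array or siMPS1 replicate 2 (0.29 to 1.09, adjusted p up to 0.487).

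Other gene groups that meet the mitochondrial ribosome were counted in the same way, and no difference between lists was tested. Subunits of oxidative phosphorylation, which include the partners of its products, were counted at both steps in Control. From 6 to 24 h 23 of 62 rose and 3 fell, and from 24 to 48 h 36 rose and 0 fell (medians 0.12 and 0.23). Of all genes, 43.1% were called and 27.1% called higher at the first step. The share of these subunits called at that step was near that of all genes. At the second step 19.6% of all genes were called and 8% called higher. Against siNeg 14 of these subunits rose and 0 fell at 6 h, and 8 rose and 14 fell at 48 h. Of all genes, 7.7% were called at 6 h and 29.2% at 48 h, so the share at 48 h was near that of all genes. NDUFA3 rose by 0.87 at 6 h (adjusted p = 0.000488), and at 48 h COX8A fell by 0.45 (adjusted p = 6.17e-06) and CYC1 by 0.45 (adjusted p = 0.000163). Of 52 cytosolic ribosomal protein genes, 4 rose and 3 fell in Control from 6 to 24 h (median -0.02), and 2 rose and 0 fell from 24 to 48 h (median 0.02). Against siNeg at 6 h 28 of 52 rose and 0 fell (median 0.28), among them RPL29 by 0.41 (adjusted p = 0.00133) and RPL3 by 0.45 (adjusted p = 0.00328). At 48 h 0 rose and 4 fell. Among 17 genes of mitochondrial protein import, which carries the mitoribosomal proteins to their site, 4 rose and 4 fell at 48 h. The receptor genes TOMM20 and TOMM22 fell by 0.62 (adjusted p = 5e-07) and 0.79 (adjusted p = 0.000543), and TIMM13 rose by 0.42 (adjusted p = 0.000224). Among 9 chaperones and proteases, LONP1 rose by 0.56 (adjusted p = 0.00315) and YME1L1 fell by 0.40 (adjusted p = 0.00117) at 48 h. YME1L1 was already lower at 24 h, with a log2 difference of -0.62 (adjusted p = 7.43e-05). HTRA2 was called lower at 24 and 48 h (-0.47 and -0.35). CLPP was called higher at 6 h (0.41), HSPE1 at 24 h (0.42) and AFG3L2 at 48 h (0.24). The calls of HTRA2, CLPP, HSPE1 and AFG3L2 could be ended by leaving out 1 array.

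**Figure D4:**
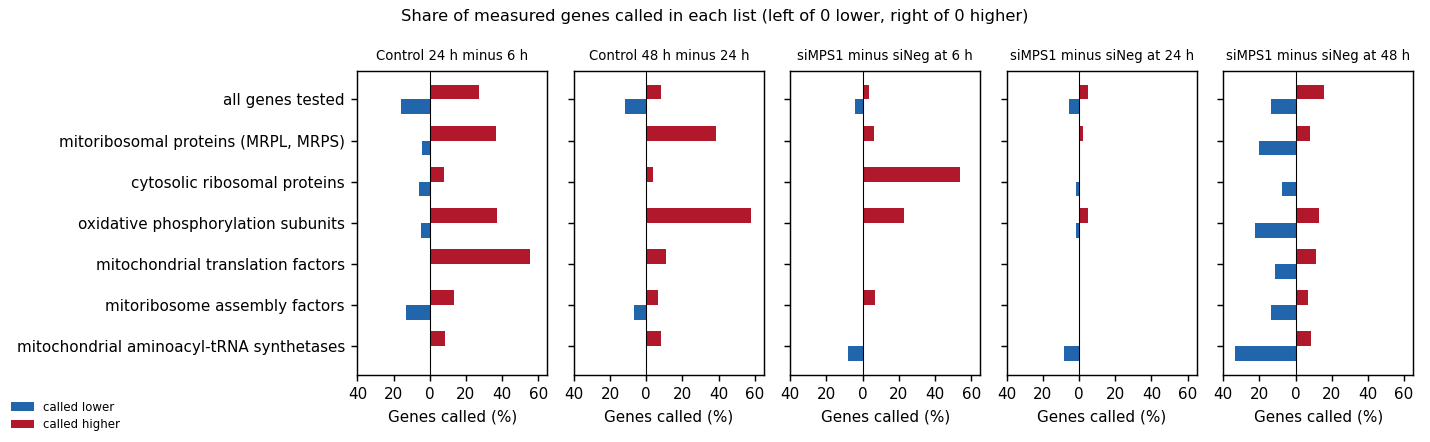
Share of the measured genes of each list called higher (red, right of 0) and lower (blue, left of 0) in 5 comparisons, at adjusted p under 0.05. The MRPL and MRPS bar and the oxidative phosphorylation bar reach further right than that of all genes in Control 48 h minus 24 h, and the cytosolic ribosomal protein bar is the longest in siMPS1 minus siNeg at 6 h.

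Among 13 genes of mitochondrial transcription and its regulators, the share called against siNeg was no higher than that of all genes at any time. Of all genes, 7.7%, 10.9% and 29.2% were called at 6, 24 and 48 h. YY1, which encodes a factor whose motif was searched above, fell by 0.25 at 6 h (adjusted p = 0.0247). With the mean of its probe sets this fall was gone. TFB2M, a factor of the mitochondrial RNA polymerase, fell by 0.42 at 24 h (adjusted p = 0.00561) and MYC by 0.26 at 48 h (adjusted p = 0.00614). The YY1 call was lost without any 1 of the 4 arrays (adjusted p up to 0.161), that of TFB2M without siMPS1 24 h replicate 2 or siNeg 24 h replicate 1 (adjusted p up to 0.104) and that of MYC without siMPS1 48 h replicate 1 (adjusted p = 0.0661). In Control, MYC fell by 0.61 from 6 to 24 h (adjusted p = 7.48e-07) and by 0.36 from 24 to 48 h (adjusted p = 0.000999). GABPB1, a subunit of an ETS factor complex, fell by 0.58 from 6 to 24 h in Control (adjusted p = 1.27e-05). TFB1M, which modifies the small-subunit rRNA, rose by 1.04 over that step (adjusted p = 1.88e-07), and TUFM, the mitochondrial elongation factor, by 0.46 (adjusted p = 1.7e-05).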

How the data were processed

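Affymetrix arrays of 18 samples (9 groups of 2) were used as the authors' deposited log2 values, made with MAS5 per the submitters' processing notes. That the base is 2 was taken from the data, since 2 raised to the values gave a 2% trimmed mean of 100.122 to 100.134 on every array. Deposited values ran from -5.83 to 13.03, with 9.38% below 0. No aligner or genome build applies, and probe coordinates were not used.

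Genes were named through the platform annotation from probe sets with exactly 1 gene (1043 named several, 2108 none); 19052 of 19064 matched RefSeq. Signals were returned to the linear scale, 3 was added and log2 taken, so differences of dim genes are understated. Probe sets in the dimmest 40% were dropped, and each gene kept its brightest one. The fit in limma 3.58.1 (R 4.3.3) had 1 mean for each group (9 residual degrees of freedom, prior 8.56, intensity trend), two-sided, with Benjamini-Hochberg adjustment over 7828 genes in each comparison. The procedure was tested on simulated data.

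The members, the 9 related lists and the tests were chosen with earlier results of these data known. Named were called members (up to 12 in each direction against siNeg and 6 otherwise, further ones after their values were seen), the 3 brightest and dimmest, the S18 paralogs, and up to 4 called genes of each list in each direction against siNeg. Genes named for their change in Control outside the members (MYC, GABPB1, TFB1M and TUFM) were chosen after their values were seen. Alternatives were pseudocounts of 1 and 16, quantile normalization, median centring, no filter, the mean of a gene's probe sets, no intensity trend, a replicate block, a fit of the compared groups alone, and leaving out each array. Promoters came from RefSeq (GRCh38.p14).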

Additional observations from a re-analysis of the deposited data

Results flagged for a closer look

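For 6 members the difference between siMPS1 and siNeg itself differed between successive times, by a test of that change in limma with adjustment over all genes. From 6 to 24 h MRPS34 changed by -0.52 (SE 0.14, adjusted p = 0.0425). Between 24 and 48 h MRPL42 changed by -0.95 (SE 0.11, adjusted p = 2.28e-05), MRPL16 by -0.58 (SE 0.13, adjusted p = 0.00524), MRPS33 by -0.51 (SE 0.16, adjusted p = 0.0398) and MRPL4 by -0.47 (SE 0.13, adjusted p = 0.0211). MRPL33 changed by 0.44 over that step (SE 0.14, adjusted p = 0.0361). The calls of MRPL42 and MRPL16 held in all 17 alternatives tried for each, those of MRPL4 in 12, MRPS33 in 9, MRPL33 in 8 and MRPS34 in 6. MRPL4 lost its call without siNeg 24 h replicate 2, siNeg 48 h replicate 1, siMPS1 24 h replicate 2 or siMPS1 48 h replicate 1 (adjusted p up to 0.101). MRPL33 did so without siNeg 24 h replicate 1, either siNeg 48 h array, siMPS1 24 h replicate 2 or siMPS1 48 h replicate 2 (up to 0.187). MRPS33 did so without any siNeg array, siMPS1 24 h replicate 2 or siMPS1 48 h replicate 1 (up to 0.171). MRPS34 did so without any siNeg array, siMPS1 6 h replicate 2 or siMPS1 24 h replicate 1 (up to 0.153).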

How the results depend on the processing

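Counts of members called are given as higher and lower together. Against siNeg at 6 h the 3 calls became 0 with median centring or with the compared groups fitted alone, and 1 without the filter or without the intensity trend. At 24 h the 1 call became 2 with quantile normalization and 0 without the trend or with the compared groups alone. At 48 h the 14 calls stayed within 1.5 times under every alternative. Against Control, the 3 calls at 6 h became 20 with median centring, and the 8 at 24 h became 5 without the trend and 4 with the compared groups alone. For siNeg against Control, the 2 calls at 6 h became 15 with median centring, 1 with the compared groups alone and 0 with quantile normalization, without the filter or without the trend; the 1 at 24 h became 3 with median centring and 0 without the trend. In Control from 24 to 48 h the 19 became 37 with median centring. For the change of response from 6 to 24 h, the 1 call became 0 with median centring, without the filter, without the trend, with the replicate block or with the compared groups alone. From 24 to 48 h the 5 became 8 with the mean of the probe sets and 3 without the filter, without the trend or with the compared groups alone.

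Leaving out 1 array, the counts ran, for 6, 24 and 48 h, from 0 to 3, 0 to 1 and 10 to 12 against siNeg, from 1 to 5, 1 to 4 and 6 to 8 for siMPS1 against Control, and were 0, 0 and 0 to 3 for siNeg against Control. They ran from 15 to 21 and 13 to 17 for the steps in Control, 27 to 29 and 10 to 18 in siNeg, 23 to 28 and 8 to 14 in siMPS1, and 0 to 2 and 3 to 6 for the changes of response. The labels do not say whether same-numbered arrays were made together. Deviations of same-numbered arrays had correlations of -0.14 to 0.10 over 36 pairs of groups, 1 of them above 0.1. Since the labels do not tie same-numbered arrays together, these values cannot show whether arrays shared a batch. With the replicate block 13 members were called against siNeg at 48 h, and the block ended the calls of MRPL48 and MRPS15.

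No member called against siNeg or Control reversed in the alternatives run. With the mean of the probe sets, MRPS30 turned to -0.30 and MRPL57 to -0.19 in Control (6 to 24 h and 24 to 48 h). With the same mean MRPS11 turned to -0.10 in siNeg and -0.13 in siMPS1 (6 to 24 h), and to -0.01 in siNeg (24 to 48 h). Against siNeg, YY1 turned to 0.01 at 6 h and ATP5PO to -0.12 at 24 h with it. The 2 arrays in each group limit the precision of every difference.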

Other observations

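Probe sets of one gene gave different values at 48 h. For MRPL57 the chosen probe set gave 0.10 against siNeg (SE 0.07), a second one, of the type that can match related sequences, 1.22 (SE 0.14), and another, dim one -0.51 (SE 0.30). For MRPS30 the chosen probe set gave 0.01 (SE 0.09) and the other 0.48 (SE 0.15). For MRPL9 both gave lower values, -0.14 (SE 0.06) and -0.33 (SE 0.10).

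MRPL46 and MRPS11 are the pair that shares a promoter window, and of these MRPL46 moved little with time. The siNeg means of MRPS11 on its chosen probe set were 8.38, 8.57 and 8.87 at 6, 24 and 48 h. MRPL46 passed no test in any comparison. MRPS11 passed from 6 to 24 h in siNeg and siMPS1 and from 24 to 48 h in siNeg, by 0.20, 0.22 and 0.29. With the mean of its probe sets these MRPS11 values turned to -0.10, -0.13 and -0.01, and leaving out 1 array ended each call (adjusted p up to 0.183, 0.124 and 0.114): any array in siNeg at the first step, siMPS1 6 h replicate 1 or either siMPS1 24 h array, and siNeg 48 h replicate 1.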
